A study of Mus musculus with 20 samples.

Results

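Bile acids are made from cholesterol in hepatocytes by a chain of enzymes, and the 10 genes described here encode enzymes of that chain. They are the rows of the read count table with the symbols Cyp7a1, Cyp8b1, Cyp27a1, Cyp7b1, Cyp39a1, Hsd3b7, Akr1d1, Baat, Slc27a5 and Amacr. All 10 were found among the 29915 genes of the table, and all 10 were among the 13894 genes that passed the filter on low counts. The raw counts of the 10 genes were between 812 and 52650 in every library, of totals between 33746054 and 50647297.

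Messenger RNA was sequenced from livers of male mice on a chow diet and a 12/12 light/dark cycle. One genotype is labelled Wild_type (titled Ctrl) and the other carried a conditional knock-in of a SUMO-deficient form of the transcription factor Prox1, K556R (titled Cre), expressed in hepatocytes after Cre recombination at 8 weeks of age. Livers were taken 11 weeks later, at ZT 15 to 17, from mice that were fasted or re-fed, which gave 4 groups of 5 libraries in 2 batches. The sources used here do not give the promoter or vector that carried Cre, the alleles and any Cre of the Ctrl mice, or the length of the fast, so an effect of Cre itself and one of K556R cannot be told apart. The labels number repeats without saying that they are separate animals, so p-values measure the spread between these libraries, named below by repeat and batch (1_b1 is repeat 1 of batch 1). SUMO is a small protein that is attached to lysines of other proteins, and K556R exchanges such a lysine for an arginine.

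The classic arm of bile acid synthesis opens with Cyp7a1, the rate-limiting 7α-hydroxylase of cholesterol, and uses Cyp8b1, the 12α-hydroxylase that directs intermediates to cholic acid. The alternative arm opens with Cyp27a1, the mitochondrial sterol 27-hydroxylase, and continues with Cyp7b1, the oxysterol 7α-hydroxylase. In the liver Cyp7a1 transcription depends on the nuclear receptors HNF4A and LRH-1 (the product of Nr5a2) and is repressed by bile acids through FXR, SHP and intestinal FGF15, and Prox1 is known as a corepressor that binds HNF4A and LRH-1.

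Of the 10 genes, 4 have a RefSeq promoter window (GRCm38.p6, 250 bases before to 50 after the start), and the 250 bases before the start are printed because 3 of these genes changed with feeding and the other, Cyp8b1, is the 12α-hydroxylase of the classic arm. They are written 5′ to 3′ on the strand of the gene, with the letters of the searched motifs in capitals:
Cyp8b1 (chr9:121916306-121916555, minus strand): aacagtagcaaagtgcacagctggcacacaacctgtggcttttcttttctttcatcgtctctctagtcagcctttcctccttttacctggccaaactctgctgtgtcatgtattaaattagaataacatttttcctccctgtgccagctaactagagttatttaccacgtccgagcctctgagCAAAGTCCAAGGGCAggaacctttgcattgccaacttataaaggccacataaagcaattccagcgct
Cyp27a1 (chr1:74713285-74713534, plus strand): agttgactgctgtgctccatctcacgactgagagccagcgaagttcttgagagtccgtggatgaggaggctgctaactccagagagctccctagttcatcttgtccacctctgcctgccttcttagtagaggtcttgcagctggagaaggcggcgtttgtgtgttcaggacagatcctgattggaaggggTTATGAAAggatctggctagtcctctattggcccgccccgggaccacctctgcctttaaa
Hsd3b7 (chr7:127800359-127800608, plus strand): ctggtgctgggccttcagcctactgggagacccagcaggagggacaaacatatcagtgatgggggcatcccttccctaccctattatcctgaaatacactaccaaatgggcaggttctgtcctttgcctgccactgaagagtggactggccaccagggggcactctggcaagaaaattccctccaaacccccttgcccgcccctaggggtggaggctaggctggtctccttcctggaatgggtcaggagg
Akr1d1 (chr6:37529923-37530172, plus strand): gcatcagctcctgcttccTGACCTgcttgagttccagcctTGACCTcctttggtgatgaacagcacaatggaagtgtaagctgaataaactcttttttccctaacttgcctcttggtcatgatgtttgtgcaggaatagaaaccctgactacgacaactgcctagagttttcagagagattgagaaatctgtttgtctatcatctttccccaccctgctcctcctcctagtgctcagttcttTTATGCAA

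The motifs, searched on both strands of the 300-base windows, were an HNF4A motif (CAAAGTCCA), an NR5A2 motif (CAAGGNCA), a D-box (TTATGNAA, the kind of motif that DBP and NFIL3 recognise) and a nuclear receptor half-site (AGGTCA). They were found in 0.475%, 6.71%, 3.38% and 16.3% of 32851 RefSeq windows of the same length. The Cyp8b1 window held the HNF4A motif from -67 and the NR5A2 motif from -60, and the matches overlap. The Cyp27a1 window held a D-box match from -60 and the Akr1d1 window held a D-box match from -8, with 2 half-sites on the minus strand from -232 and -210. Offsets count from the RefSeq start. For Cyp27a1 the printed bases end at 74713534, upstream of the GENCODE start at 74713574, so the offset depends on the start chosen. The Hsd3b7 window held none of the letters searched. A match is a description of the letters, and binding was not measured here.

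In the GENCODE M21 annotation of GRCm38, Cyp7a1 lies on chromosome 4 from 6265612 to 6275633 (minus strand) and Cyp8b1 on chromosome 9 from 121914356 to 121916305 (minus). Cyp27a1 lies on chromosome 1 from 74713574 to 74737892 (plus), Cyp7b1 on chromosome 3 from 18071950 to 18243338 (minus) and Cyp39a1 on chromosome 17 from 43667425 to 43751431 (plus). Hsd3b7 lies on chromosome 7 from 127800604 to 127803802 (plus), Akr1d1 on chromosome 6 from 37530173 to 37568815 (plus), Baat on chromosome 4 from 49489422 to 49506557 (minus), Slc27a5 on chromosome 7 from 12988346 to 12998192 (minus) and Amacr on chromosome 15 from 10981756 to 10996626 (plus). The annotated exons, whose summed length was used per kilobase, cover from 1941 bases (Baat) to 4174 (Cyp7a1).

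Levels are CPM, the reads of a gene scaled to a common library total with TMM-adjusted library sizes, and levels of different genes are compared as CPM per kilobase of exonic length. In livers of fasted wild-type mice the order per kilobase was Slc27a5 at 436 ± 17.8 (SD, n = 5, as for all group means of 5 libraries), Cyp27a1 at 318 ± 44.0, Cyp8b1 at 179 ± 18.9, Baat at 152 ± 6.26, Cyp7b1 at 108 ± 61.7, Hsd3b7 at 87.7 ± 13.1, Akr1d1 at 58.2 ± 13.6, Amacr at 44.5 ± 5.46, Cyp39a1 at 19.4 ± 5.91 and Cyp7a1 at 15.6 ± 6.85. The rate-limiting enzyme was thus the lowest of the 10 in mean CPM per kilobase, and its interval of 1 SD overlapped that of Cyp39a1. Those of Cyp7b1 and its neighbours Baat and Hsd3b7 overlapped too, as did those of Akr1d1 and Amacr. In refed wild-type mice Cyp7a1 stood at 41.1 ± 15.8 CPM per kilobase, beside Amacr at 41.0 ± 2.66 and above Cyp39a1 at 12.7 ± 1.68.

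**Figure D1:**
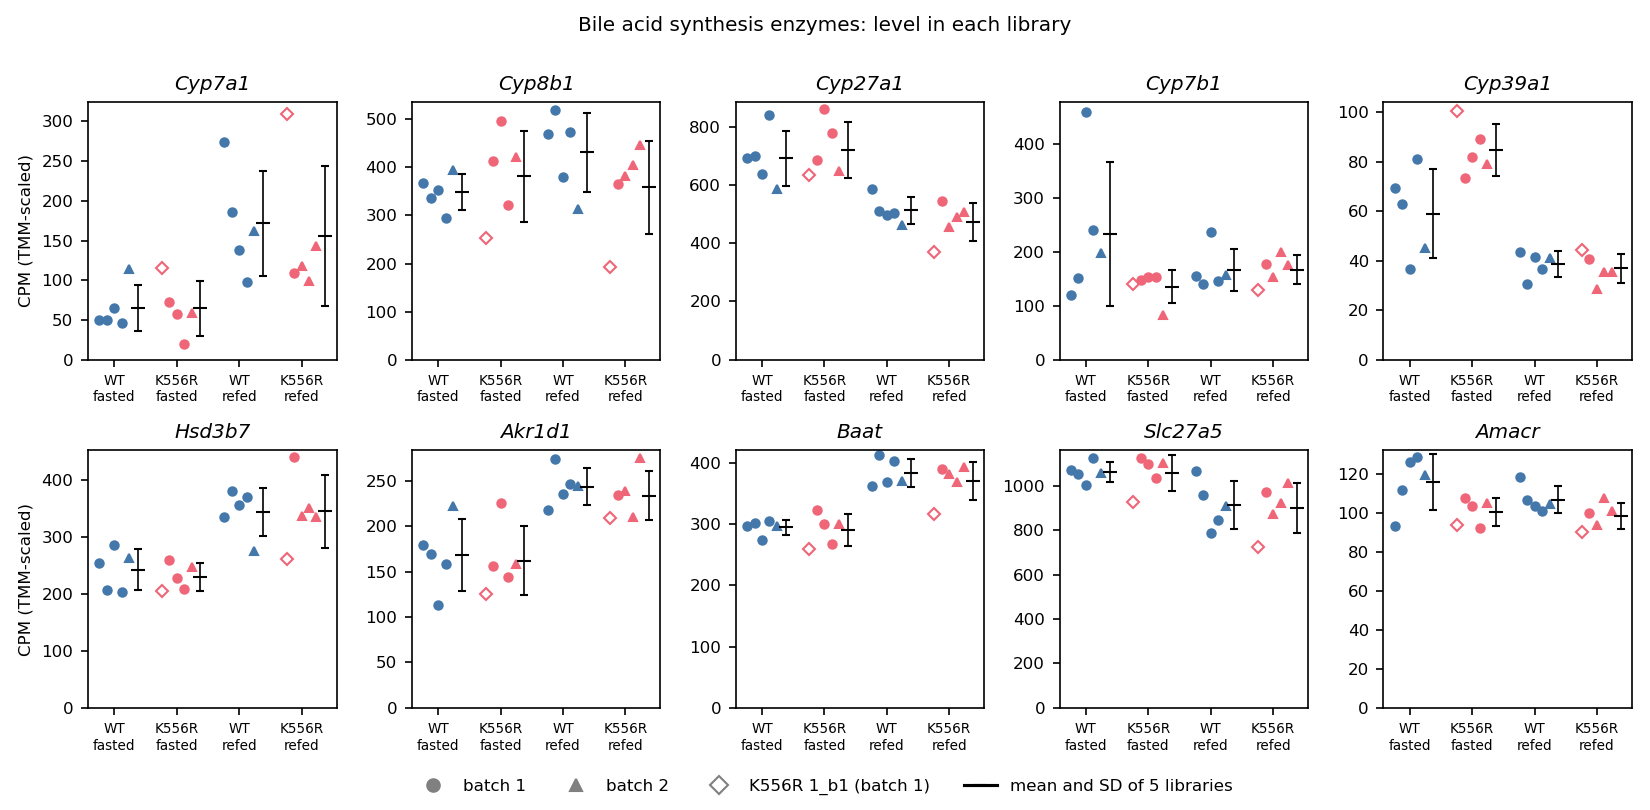
Level of each of the 10 genes in CPM (vertical axes) in every library of the 4 groups (horizontal axes), with 1 point per library and the group mean with SD. Cyp7a1 is low in both fasted groups and spread wider in CPM in both refed groups, in K556R through library 1_b1. Relative to its mean Cyp7a1 varies widely in all 4 groups, and Baat varies little within groups.

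On refeeding Cyp7a1, the first enzyme of the classic arm, rose and Cyp27a1, the first of the alternative arm, fell in both genotypes. In wild-type livers Cyp7a1, Hsd3b7, Akr1d1 and Baat rose and Cyp27a1 and Cyp39a1 fell, 6 of the 10 genes at an adjusted p under 0.05 in edgeR's quasi-likelihood test. In K556R livers the same 4 rose and Cyp27a1, Cyp39a1 and Slc27a5 fell, 7 of 10. The K556R calls of Cyp7a1, Akr1d1 and Slc27a5 were each lost when certain single libraries were left out. Refeeding changed 45.1% of all tested genes in wild type (20.9% higher, 24.2% lower) and 39.9% in K556R (19.6% higher, 20.3% lower). The median absolute log2 change of the 10 genes was 0.455 in wild type and 0.434 in K556R, against 0.277 and 0.263 over all genes. Their median signed change was 0.10 and 0.14, with 5 genes above and 5 below 0 in each genotype. As a check of the feeding labels, Pck1, a gluconeogenic gene that feeding represses, was at 6783 ± 1127 CPM in fasted and 987 ± 277 in refed wild-type livers.

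Cyp7a1 in fasted wild-type livers was at 49.6, 49.4, 64.6, 46.6 and 114 CPM in libraries 1_b1, 2_b1, 3_b1, 4_b1 and 1_b2. In refed wild-type livers it was at 274, 186, 138, 97.5 and 162 CPM in the same order of names. Of the fasted libraries 1_b2 alone reached into the refed range, above refed 4_b1, so the groups overlap. Cyp7a1 rose by a log2 change of 1.39 (SE 0.44, 2.63-fold, edgeR adjusted p = 0.0171), and it was 1.73 in batch 1 alone and 0.51 in batch 2 alone, which has 1 wild-type library per feeding state.

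In K556R livers Cyp7a1 was at 115, 72.7, 58.0, 19.4 and 58.3 CPM in fasted libraries 1_b1, 2_b1, 3_b1, 4_b1 and 1_b2. In refed K556R libraries 1_b1, 2_b1, 1_b2, 2_b2 and 3_b2 it was at 309.6, 109, 143, 118 and 98.5 CPM. The highest value of each feeding state came from 1_b1, and fasted 1_b1 lay above refed 2_b1 and 3_b2. In the fit Cyp7a1 rose by a log2 change of 1.28 (SE 0.45, 2.42-fold, edgeR adjusted p = 0.0326). Without refed 1_b1 the log2 change was 0.68 (edgeR adjusted p = 0.254). The call was also lost with 1 fasted library fewer at a size nearer the whole, 1.24 without 3_b1 (edgeR adjusted p = 0.0596), 1.06 without 4_b1 (0.0547) and 1.23 without 1_b2 (0.0741). With limma and sample weights it was 1.01 (adjusted p = 0.103). Without refed 1_b1 the refed mean fell from 156 ± 87.7 to 117 ± 19.02 CPM (n = 4).

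Cyp8b1, the other enzyme of the classic arm, did not pass the test in either genotype. Fasted wild-type libraries were at 367, 337, 353, 295 and 394 CPM and refed ones at 469, 519, 381, 473 and 313 CPM, in the order of names used for Cyp7a1. Refed 1_b2 was the lowest of the refed group and below 4 of the 5 fasted libraries. The log2 change was 0.32 (95% interval -0.09 to 0.73, edgeR adjusted p = 0.206), and without refed 1_b2 it was 0.47 (edgeR adjusted p = 0.043). In K556R it was -0.17 (95% interval -0.61 to 0.27, edgeR adjusted p = 0.567), from 381 ± 95.2 to 358 ± 96.9 CPM, and 0.06 without refed 1_b1.

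Cyp27a1, which opens the alternative arm, fell on refeeding in both genotypes. Fasted wild-type libraries were at 693, 697, 636, 841 and 586 CPM and refed ones at 587, 510.4, 498, 504 and 462 CPM. Only refed 1_b1 and fasted 1_b2 met, at nearly the same level. Cyp27a1 had a log2 change of -0.43 (SE 0.11, 0.742-fold, edgeR adjusted p = 0.00277). In K556R the fasted libraries were at 635, 684, 859, 777 and 647 CPM and the refed ones at 370.4, 544, 507, 454 and 490.1 CPM, and the groups did not overlap. The log2 change there was -0.55 (SE 0.12, 0.681-fold, edgeR adjusted p = 0.000685).

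Cyp7b1 varied most among the fasted wild-type libraries, at 119, 152, 458, 240.2 and 197 CPM, and library 3_b1 was almost 2 times the next one. The refed wild-type libraries were at 155, 140.1, 236, 146 and 156 CPM, again with 3_b1 highest. The groups overlap, and the log2 change was -0.48 (95% interval -1.08 to 0.12, edgeR adjusted p = 0.187), and -0.09 without fasted 3_b1 (edgeR adjusted p = 0.767). In K556R the fasted libraries were at 139, 148, 154, 154 and 81.8 CPM and the refed ones at 128, 178, 175, 153 and 199 CPM. Here the log2 change was 0.41 (95% interval -0.25 to 1.07, edgeR adjusted p = 0.329). It was 0.04 in batch 1 and 1.11 in batch 2, where the 1 fasted library is the lowest of its group.

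Cyp39a1, the 24-hydroxycholesterol 7α-hydroxylase that serves sterols made in the brain, fell in both genotypes. Fasted wild-type libraries were at 69.2, 62.9, 36.8, 81.3 and 45.1 CPM and refed ones at 43.5, 30.7, 41.4, 36.6 and 41.2 CPM. The fasted library 3_b1 lay inside the refed range, and the log2 change was -0.60 (SE 0.16, 0.661-fold, edgeR adjusted p = 0.00546), with -0.72 in batch 1 and -0.12 in batch 2. In K556R all fasted libraries, at 101, 73.5, 82.1, 89.2 and 79.0 CPM, lay above all refed ones, at 44.3, 40.9, 35.4, 28.8 and 35.3 CPM. The log2 change was -1.12 (SE 0.17, 0.46-fold, edgeR adjusted p = 3.92e-05).

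**Figure D2:**
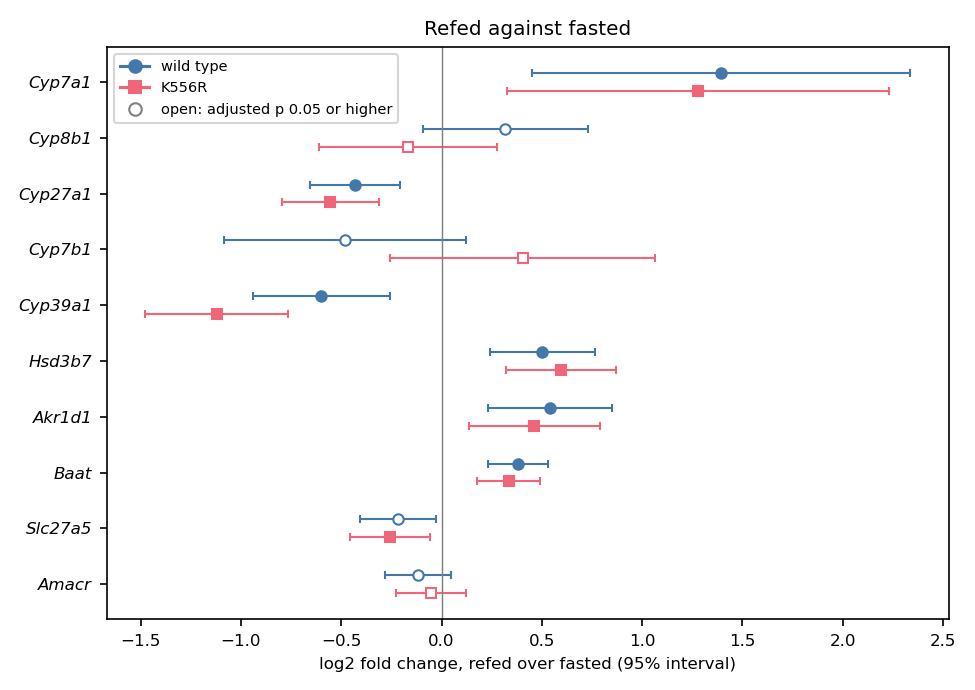
Log2 change on refeeding of each of the 10 genes (horizontal axis, with 95% intervals) in wild-type and in K556R livers. The genes Cyp7a1, Hsd3b7, Akr1d1 and Baat lie above 0 and Cyp27a1 and Cyp39a1 below 0 in both genotypes, and Cyp8b1 and Cyp7b1 lie on opposite sides of 0 with intervals that include 0.

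The enzymes of the shared ring steps rose on refeeding. Hsd3b7, the 3β-hydroxy-C27-steroid dehydrogenase that acts after 7α-hydroxylation in both arms, was at 254, 207, 286, 203 and 263 CPM in fasted and at 336, 382, 357, 370.1 and 276 CPM in refed wild-type libraries. Refed 1_b2 alone lay below the highest fasted library. Hsd3b7 rose by a log2 change of 0.50 (SE 0.13, 1.42-fold, edgeR adjusted p = 0.00278), with 0.61 in batch 1 and 0.08 in batch 2. In K556R it rose from 230.2 ± 23.97 to 346 ± 63.8 CPM (log2 change 0.60, SE 0.13, edgeR adjusted p = 0.00121), and the groups did not overlap, though refed 1_b1 at 262 CPM was just above the highest fasted library at 260.3. The exons of Hsd3b7 overlap those of 9430064I24Rik on the other strand and of Gm49388 on the same strand, and the strand setting of the counting is not known, so reads of these genes cannot be told apart.

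Akr1d1, the 5β-reductase that bends the sterol ring system, was at 179, 169.8, 113, 158 and 222 CPM in fasted and at 218, 274, 235, 247 and 245 CPM in refed wild-type libraries. Fasted 1_b2 was the only library of its group to reach the refed range. For Akr1d1 this was a log2 change of 0.54 (SE 0.15, 1.46-fold, edgeR adjusted p = 0.00531), with 0.65 in batch 1 and 0.15 in batch 2. In K556R it was 0.46 (SE 0.16, 1.38-fold, edgeR adjusted p = 0.0234), from 162 ± 38.1 to 234 ± 27.2 CPM. That call was lost without fasted 1_b1 (edgeR adjusted p = 0.0533), fasted 1_b2 (0.094) or refed 2_b1 (0.0595), and in batch 1 alone (0.122).

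Of the 2 conjugation enzymes Baat rose in both genotypes. Slc27a5, the bile acid-CoA ligase that activates bile acids, was the most abundant of the 10 per kilobase in every group. Baat, which joins the activated acid to taurine or glycine, was at 297, 301, 274, 305 and 298 CPM in fasted and at 362, 413, 369, 403 and 371 CPM in refed wild-type libraries. It was the 1 gene of the 10 whose fasted and refed wild-type ranges did not meet, where 34.6% of all genes had such ranges. Its log2 change was 0.38 (SE 0.072, 1.30-fold, edgeR adjusted p = 0.000216), and in K556R 0.33 (SE 0.076, 1.26-fold, edgeR adjusted p = 0.0014; 0.0534 in batch 1 alone).

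Slc27a5 in wild type went from 1063 ± 43.3 to 914 ± 107 CPM, a log2 change of -0.22 (95% interval -0.41 to -0.03, edgeR adjusted p = 0.0558). In K556R it went from 1059 ± 80.5 to 902 ± 112 CPM, a log2 change of -0.26 (95% interval -0.46 to -0.06, edgeR adjusted p = 0.0372). Both values lie near the threshold, and the K556R call was lost when any 1 of 7 libraries was left out, fasted 2_b1, 3_b1, 4_b1 or 1_b2 or refed 2_b2, 3_b2 or 1_b1 (-0.16, edgeR adjusted p = 0.169 without the last). In wild type Slc27a5 passed with DESeq2 (adjusted p = 0.0492) and limma (adjusted p = 0.0153), and in 5 of 13 alternative settings. In K556R 4 of 13 such settings kept the call. It was lost there with limma (adjusted p = 0.118) and with upper-quartile scaling (edgeR adjusted p = 0.0554). In K556R 3 of the 10 genes had ranges that did not meet, Cyp27a1, Cyp39a1 and Hsd3b7, where 26.9% of all genes did. Amacr, the racemase that prepares the side chain for peroxisomal shortening, had a log2 change of -0.12 in wild type (95% interval -0.28 to 0.05, edgeR adjusted p = 0.248, and 0.0414 without fasted 1_b1) and -0.05 in K556R (95% interval -0.22 to 0.12, edgeR adjusted p = 0.665).

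The balance of the arms was described in each library by the log2 ratio of Cyp7a1 and Cyp8b1 to Cyp27a1 and Cyp7b1, each sum in CPM per kilobase. In fasted wild-type livers the ratio was -0.90, -1.08, -1.36, -1.62 and -0.65, and in refed ones -0.16, 0.05, -0.56, -0.17 and -0.51. The alternative arm was the higher sum in all but refed 2_b1, and the wild-type feeding groups did not overlap. The means were -1.12 ± 0.38 and -0.27 ± 0.26, a difference of 0.85. In K556R the ratio was -1.18, -0.74, -0.79, -1.34 and -0.54 in fasted and -0.40, -0.64, -0.25, -0.32 and -0.46 in refed libraries. The groups overlap there, at fasted 1_b2, and the means of -0.92 ± 0.33 and -0.42 ± 0.15 differ by 0.51. Within batches the difference was 1.03 in batch 1 and 0.14 in batch 2 in wild type, and 0.49 and 0.20 in K556R. Batch 2 holds 1 library per wild-type group, and 1 fasted and 3 refed K556R libraries. These ratios carry no test, since they are sums over chosen genes, and the group means over both batches have no batch term.

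Cyp7a1 is a small share of these sums. It made up 2.53 ± 1.20% of the 4 enzymes per kilobase in fasted and 7.09 ± 2.26% in refed wild-type libraries. In K556R it was 2.67 ± 1.70% and 7.80 ± 5.96%, with 18.4% in refed 1_b1. With the 7α-hydroxylases alone, the log2 ratio of Cyp7a1 to Cyp7b1 went from -2.72 ± 0.82 to -0.96 ± 0.66 in wild type and from -2.18 ± 1.07 to -1.17 ± 0.88 in K556R, differences of 1.76 and 1.01. Within batches the change was 1.99 in batch 1 and 0.84 in batch 2 in wild type, and 1.70 and -0.07 in K556R, where it was 0.64 without refed 1_b1.

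**Figure D3:**
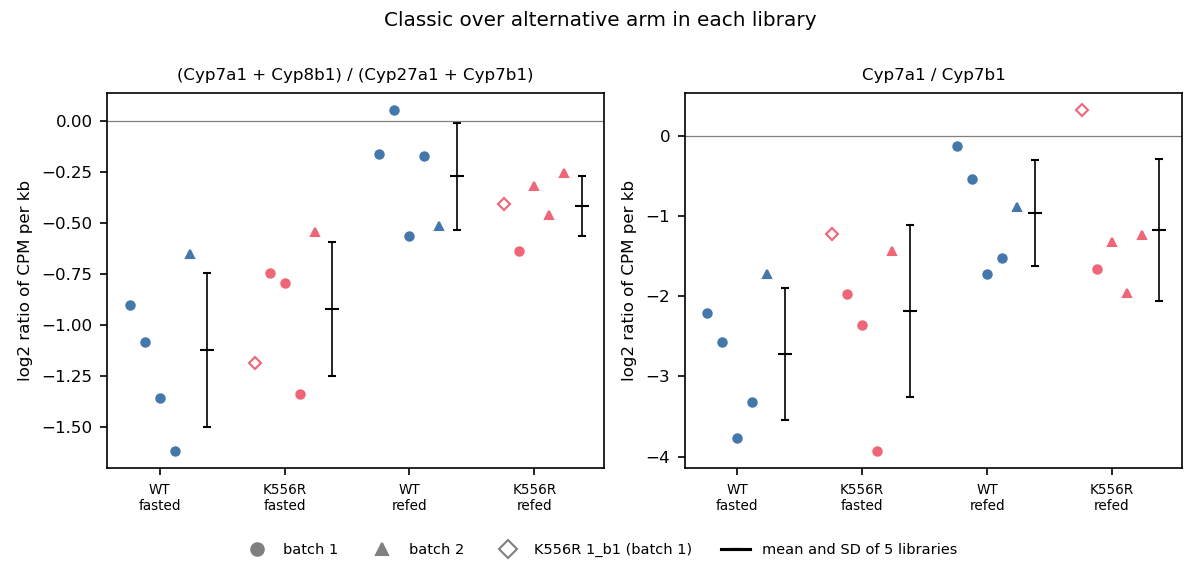
Log2 ratio of the classic to the alternative arm in CPM per kilobase (vertical axis) in each library of the 4 groups, with group means and SD. Refed wild-type libraries, from -0.56 to 0.05, all lie above the fasted ones, from -1.62 to -0.65, and the K556R groups overlap.

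Between genotypes none of the 10 genes passed the test, in fasted or refed livers, averaged over both, or in the interaction of genotype and feeding. The count over all tested genes was also low, with 0% called in fasted livers, 0% in refed livers, 0.0288% averaged (4 genes) and 0% in the interaction. At an unadjusted p under 0.05 there were 3, 0, 2 and 1 of the 10, among 1136, 693, 1288 and 553 genes in all. DESeq2 called 68, 6, 41 and 1 genes and limma with sample weights 2, 0, 6 and 0, with none of the 10 among them. The median difference of the 10 was -0.02 in fasted and -0.07 in refed livers, against -0.01 and 0.02 over all genes. None of the 10 had genotype ranges that did not meet, where 0.914% of all genes did in fasted and 0.619% in refed livers. The targeted gene Prox1 was at 185 ± 38.6 CPM in fasted wild-type and 105 ± 15.7 in fasted K556R livers, and at 110.1 ± 15.7 and 75.5 ± 12.1 in refed ones, with an averaged log2 difference of -0.72 (SE 0.10, edgeR adjusted p = 0.00563). For Prox1 the edgeR adjusted p was 0.326 in batch 1 alone (-0.71), 0.177 with the replicate block (-0.70) and 0.0805 without the 2 K556R libraries set apart and fasted wild-type 1_b2 (-0.76), so the call was lost there at a like size. The counts do not show the K556R change itself, so this level checks the labels only in part.

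For Cyp7a1 the genotype difference was -0.01 in fasted livers (95% interval -0.94 to 0.92 on the log2 scale) and -0.13 in refed livers (-1.07 to 0.80). The refed value was -0.72 without refed K556R 1_b1 and -0.77 without both K556R libraries 1_b1, and the fasted one was 0.33 in batch 1 and -0.98 in batch 2, where each genotype has 1 fasted library. Differences inside the 95% intervals of Cyp7a1 remain compatible with the data. Cyp7a1 varied by 38.4% to 56.4% (coefficient of variation) within groups, against a median over all genes of 9.61% to 13.8%. For Baat, with 4.12% to 8.92%, the interval was -0.17 to 0.13 in fasted and -0.23 to 0.09 in refed livers. Cyp27a1 had -0.16 to 0.29 and -0.30 to 0.18, and Slc27a5 -0.19 to 0.18 and -0.24 to 0.15. Cyp8b1 had -0.28 to 0.54 in fasted and -0.81 to 0.09 in refed livers, around values of 0.13 and -0.36. The refed value of Cyp8b1 was -0.12 without refed K556R 1_b1 and 0.38 in batch 2 alone.

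In fasted livers 3 genes had an unadjusted p under 0.05. Cyp39a1 was at 59.1 ± 18.0 CPM in wild type and 84.9 ± 10.4 in K556R, a log2 difference of 0.53 (SE 0.16, edgeR adjusted p = 0.367). Only the wild-type library 4_b1, at 81.3 CPM, lay inside the K556R range. Cyp7b1 was at 233 ± 134 CPM in wild type and 135 ± 30.5 in K556R, a log2 difference of -0.80 (SE 0.29, edgeR adjusted p = 0.45), and it was -0.40 without wild-type 3_b1, the library at 458 CPM. Amacr was at 93.3, 112, 126, 128 and 119.6 CPM in wild type and at 94.1, 108, 104, 92.1 and 105 CPM in K556R, a log2 difference of -0.20 (SE 0.079, edgeR adjusted p = 0.494). Averaged over feeding states Amacr differed by -0.17 (edgeR adjusted p = 0.357) and Cyp39a1 by 0.27 (edgeR adjusted p = 0.478), and none of these passes the correction over all genes.

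In batch 2 alone, with 1 fasted library per genotype, the genotype difference in fasted livers was -1.27 for Cyp7b1 and 0.80 for Cyp39a1. The spread in that fit comes from the 3 refed K556R libraries, so its calls are not used. In the interaction, the K556R refeeding change minus the wild-type one, Cyp39a1 had -0.52 (SE 0.23, edgeR adjusted p = 1), Cyp7b1 0.89 (SE 0.42, edgeR adjusted p = 1, and 0.44 without fasted wild-type 3_b1) and Cyp8b1 -0.48 (95% interval -1.10 to 0.13, and -0.25 without refed K556R 1_b1). For Cyp7a1 the interval of the interaction ran from -1.46 to 1.22. So the refeeding changes of the genotypes were not shown to differ for any of the 10 genes, including Slc27a5, which passed in K556R only (interaction -0.04, 95% interval -0.31 to 0.23).

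**Figure D4:**
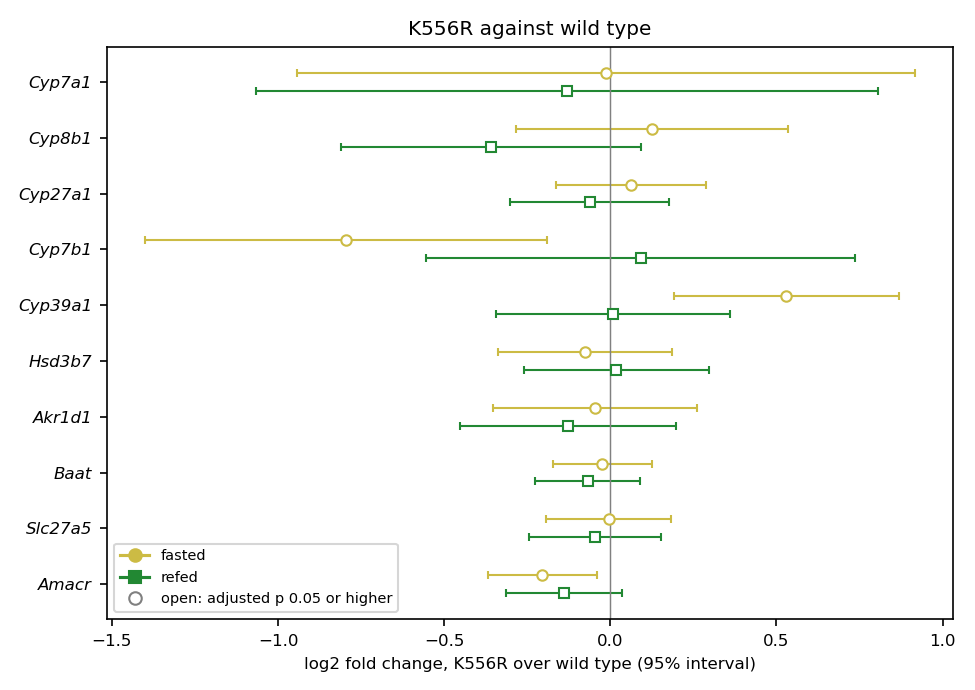
Log2 difference of K556R from wild type (horizontal axis, with 95% intervals) for each of the 10 genes in fasted and in refed livers. Intervals of Cyp7a1 and Cyp7b1 are the widest, and those of Cyp39a1, Cyp7b1 and Amacr in fasted livers exclude 0 before correction.

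Principal components of all tested genes set 2 K556R libraries apart on the second component (12.1% of the variance), fasted 1_b1 at -39.5 and refed 1_b1 at -57.3. Among the 10 genes refed 1_b1 was the lowest of its group in 8 and the highest in Cyp7a1 and Cyp39a1. Fasted 1_b1 was the lowest in 6 (Cyp8b1, Cyp27a1, Hsd3b7, Akr1d1, Baat and Slc27a5) and the highest in the same 2. Beside this, the summed level of 6 proliferation markers was 43.3 CPM in refed 1_b1 against at most 7.72 in the other refed K556R libraries, and 14.9 in fasted 1_b1 against at most 6.17. Of 8 listed lymphocyte markers, among them Ptprc, which is not limited to lymphocytes, 7 were in the table. They summed to 15.96 CPM in refed 1_b1 against at most 7.79, and to 11.8 in fasted 1_b1 against at most 6.01. In either library 0 of these markers were at 0. In refed 1_b1 the sums of Kupffer cell (119 against at most 77.0 CPM), cholangiocyte (47.5 against at most 42.9) and sinusoidal endothelial markers (94.2 against at most 81.0) were also the highest of the group. Their part in the levels of the 10 genes was not tested, and in bulk liver fewer cells of a type and less RNA per cell cannot be told apart. Without both libraries 4 of the 10 genes remained called on refeeding in K556R, in a fit that called 5206 of 13899 tested genes. Cyp7a1 (0.98, edgeR adjusted p = 0.077), Akr1d1 (0.42, 0.0711) and Slc27a5 (-0.20, 0.0784) did not pass in that fit. With fasted wild-type 1_b2 left out as well, 6 of the 10 were called on refeeding in K556R, among 5235 of 13874 tested genes.

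In fasted wild type the extremes lay mainly in libraries 4_b1 and 3_b1. Library 4_b1 was the highest in 5 of the 10 genes (Cyp27a1, Cyp39a1, Baat, Slc27a5 and Amacr) and the lowest in 3 (Cyp7a1, Cyp8b1 and Hsd3b7), and 3_b1 was the highest in Cyp7b1 and Hsd3b7 and the lowest in Cyp39a1, Akr1d1, Baat and Slc27a5. All 8 hepatocyte markers were in the table and summed to between 105940 and 145360 CPM over the 20 libraries, and the 4 intestine markers to between 52.2 and 103 CPM. Kupffer cell markers summed to 188 CPM in fasted wild-type 2_b1 against at most 77.0 in the others of its group, and that library held none of the extremes of the 10 genes. In the other groups and for the other cell types the sums were at most 358 CPM, the level of the stellate cell markers.

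The other genes of the pathway were counted in 3 lists. Among all tested genes refeeding changed 45.1% in wild type (20.9% higher, 24.2% lower). In K556R the share was 39.9% (19.6% higher, 20.3% lower). Of 18 listed synthesis genes 17 were tested, and refeeding raised 2 and lowered 5 in wild type, and raised 2 and lowered 7 in K556R. By their lowest p these were led by Acot12, an acetyl-CoA thioesterase (-0.95 and -1.14), Por, the electron donor of microsomal P450 enzymes (-1.91 and -2.16), Slc27a2, an acyl-CoA synthetase that can activate bile acid precursors (-0.87 and -0.84), and Stard4, a cholesterol carrier (1.18 and 1.28). Por was at 905 ± 107 CPM in fasted and 242 ± 97.4 in refed wild-type livers, while Cyp7a1, itself a microsomal P450, was higher in the refed ones. Any link between the levels of Por and Cyp7a1 was not tested. Cyp2c70, which makes the muricholic acids of mice, rose by 0.73 and 0.93 (edgeR adjusted p = 0.0173 and 0.00556). The median change of the 17 was -0.07 and -0.18.

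Of the regulators 17 of 18 were tested, and refeeding raised 2 and lowered 10 in wild type, and raised 1 and lowered 9 in K556R, with medians of -0.33 and -0.22. The shares of all tested genes that changed were 45.1% and 39.9%. The leading genes were Foxo1 (-1.62 and -1.42), Hnf4a (-0.73 and -0.80), Nr1i2, the xenobiotic receptor PXR (-0.85 and -0.96), and Nfil3, a repressor at D-box motifs (-0.78 and -0.73). Dbp, an activator at the same motifs, fell by 1.77 and 1.25, and Prox1 itself by 0.75 and 0.54. Hnf4a was at 943 ± 113 CPM in fasted and 565 ± 31.0 in refed wild-type livers, lower in the state in which Cyp7a1 was higher. These are RNA levels, and a link between them was not tested. Nr0b2, which encodes SHP, did not pass, with 20.7 ± 5.22 and 16.5 ± 2.44 CPM in the wild-type groups and an edgeR adjusted p of 0.326. Nr1h4, which encodes FXR, rose by 0.24 in wild type (edgeR adjusted p = 0.0152) and had 0.09 in K556R (edgeR adjusted p = 0.437). Nr5a2 fell by 0.29 in wild type (edgeR adjusted p = 0.0109) and had -0.09 in K556R (edgeR adjusted p = 0.49), and the difference did not pass in the interaction for either gene (edgeR adjusted p = 1).

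Of 12 transporters 11 were tested, and refeeding raised 2 and lowered 7 in wild type, and raised 1 and lowered 6 in K556R, with medians of -0.57 and -0.39. Here too the shares over all tested genes were 45.1% and 39.9%. Abcg8 (-1.71 and -1.08) and Abcg5 (-1.09 and -0.72), the paired exporters of cholesterol into bile, fell, as did Abcb4, the exporter of phospholipid (-0.96 and -0.96), and Abcc2, the exporter of conjugated anions (-0.71 and -0.53). Abcb11, the bile salt export pump, rose by 0.54 and 0.53. Between genotypes none of the genes of these lists passed apart from Prox1 in the averaged comparison.

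Within groups the enzymes of the arms did not move together in a way that held. The 4 genes gave 6 pairs of residuals over 20 libraries after removal of group and batch means, and none passed the correction for 6 pairs. Cyp8b1 and Cyp27a1 had r = 0.58 and rho = 0.46 (permutation p = 0.0255 and 0.0453, adjusted 0.121 and 0.136, with 100000 permutations). The value was 0.61 in batch 1 and 0.53 in the 6 libraries of batch 2, which holds neither of the 2 K556R libraries set apart. Without those 2 libraries it was -0.04, so the value over all 20 depends on them. Cyp7a1 and Cyp27a1 had r = -0.52 and rho = -0.54 (permutation p = 0.0403 and 0.024, adjusted 0.121 and 0.136), with -0.50 in batch 1, -0.67 in batch 2, -0.22 without the 2 libraries farthest in Cyp7a1 and -0.04 without the 2 K556R libraries set apart. Cyp7a1 and Cyp8b1 had r = -0.27 (permutation p = 0.324, adjusted 0.648) and rho = -0.08 (permutation p = 0.769, adjusted 0.923), and 0.58 without the 2 K556R libraries set apart.

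The genes most like each enzyme were sought by Pearson r of the same residuals over the 20 libraries, among 9431 genes. They are a description, since all genes share the libraries. Cyp7a1 was most like Ube2d1 (0.86), Bivm (0.83) and Acadsb (0.81), and Cyp8b1 most like Atg7 (0.93), Cat (0.89) and Gna14 (0.88). Among the genes most like Cyp27a1 were Gpld1 (0.94) and Hebp1 (0.92), and Cyp7b1 was most like Ces4a (0.91), Ythdf1 (0.90) and Selenbp2 (0.87). Without the 2 K556R libraries set apart Ube2d1 was at 0.74, Atg7 at 0.81, Gpld1 at 0.91 and Ces4a at 0.90. None of the 10 enzymes was among the 3 most like any of these 4.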

How the data were processed

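Poly-A RNA of 20 mouse liver samples was sequenced on an Illumina instrument, per the labels. The authors deposited raw counts of reads for each gene, with 1 column per library, and all columns were used. The submitters' processing notes list edgeR, DESeq2, HTSeq, STAR, STAR-Fusion and TopHat, and the build mm10. The sources used here do not say which tool counted, its version, its annotation or its strand setting. Groups and batches came from the labels.

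The deposited counts were fitted in edgeR 4.0.16 under R 4.3.3 (quasi-likelihood F test, robust, TMM, filterByExpr with a minimum count of 10 and total of 15). All 20 libraries entered 1 model of group and batch, with 6 contrasts and Benjamini-Hochberg adjustment over 13894 genes at a threshold of 0.05. Intervals are 95% and use edgeR's moderated degrees of freedom. The test was tried on simulated counts. No libraries of a group were duplicates (smallest chi-square per degree of freedom 11.2 over 40 pairs).

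The text names all 10 enzymes, Prox1, Pck1, up to 4 genes of lowest p per list and comparison with others that passed, and the 3 genes most like each of 4 enzymes (mean of at least 1 log2 CPM). Nr0b2 is named for its role, with its value seen. A gene that this rule takes is not reported here. The members, lists and alternatives were chosen with earlier results of these data known. Alternatives tried were upper-quartile and RLE scaling, limma 3.58.1 with sample weights, DESeq2 1.42.0, other filters, single batches, no batch term, a replicate block, only the groups compared, and libraries left out. The arm ratios within each batch were added after the data were seen.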

Additional observations from a re-analysis of the deposited data

Results flagged for a closer look

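In 40 groups of 5 libraries (10 genes in 4 groups) a gap test for the highest or lowest library, Dixon's with a critical value of 0.71, marked 5, and chance marks about 1 in 20. Cyp7a1 in fasted wild-type library 1_b2 was at 114 CPM, with the other 4 between 46.6 and 64.6. Cyp7a1 in refed K556R library 1_b1 was at 309.6 CPM, with the others between 98.5 and 143. Cyp7b1 in fasted K556R library 1_b2 was at 81.8 CPM, with the others between 139 and 154. Cyp7b1 in refed wild-type library 3_b1 was at 236 CPM, with the others between 140.1 and 156. Baat in fasted wild-type library 3_b1 was at 274 CPM, with the others between 297 and 305. Of the 5 values 2 come from 1_b2 of the fasted groups, and the part of the batch in them was not tested.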

How the results depend on the processing

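Of 1960 values of 60 gene and comparison pairs under alternatives, 1913 kept their side of the threshold with the direction of any call, 34 lost a call and 13 gained one, and no called value changed sign. Only 6 wild-type and 7 K556R refeeding pairs were called in the whole data, and 135 values of the other pairs changed sign. In batch 2 alone, with 1 wild-type library per feeding state, the 6 genes called in wild type all changed less on refeeding. Their log2 changes there ran from -0.33 (Cyp27a1) to 0.51 (Cyp7a1). On refeeding in K556R 7 of the 10 genes were called in the whole data, and 5543 of 13894 tested genes. Batch 1 alone called 4 of the 10 (4215 of 14267 in all). The fit without the 2 K556R libraries set apart also called 4 (5206 of 13899 in all). With fasted wild-type 1_b2 left out as well, 6 were called (5235 of 13874 in all). Leaving out each library in turn gave 4 to 7 of the 10, and in all from 4979 of 13998 to 5631 of 14013. Between genotypes in fasted livers Cyp7b1 had -1.27 and Cyp39a1 0.80 in batch 2 alone, with 1 library per genotype. In wild type the 6 calls held in all 20 fits with 1 library left out. These fits keep most of batch 1, so they do not show that the calls hold in batch 2. The log2 ratio of Cyp7a1 to Cyp7b1 alone changed by 1.76 in wild type and 1.01 in K556R on refeeding, against 0.85 and 0.51 for the sums. In batch 2 alone, an alternative added after seeing the data, the ratio of the sums changed by 0.14 on refeeding in wild type, and K556R differed from wild type by 0.17 in refed livers (-0.14 in all libraries). With the replicate block 6 of the 10 genes were called in each genotype on refeeding and 0 between genotypes. Among all 13894 tested genes it called 5929 on refeeding in wild type, 4511 in K556R and 0 between genotypes. Slc27a5 in K556R (-0.27, edgeR adjusted p = 0.106) was not called with it. Pairing of repeats across groups was not shown either way. Of 24 pairs with the same label 6 correlated over 0.1, the highest at 0.70. Their median was 0.0038, against 0.0068 for other pairs of the same batch, and 8 of 20 libraries matched their own label best. The cause of each changed call was not tested. Batch 2 holds 6 libraries, and the spread of Cyp7a1 limits what could be detected for it.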
